A study of Mus musculus with 13 samples.

Results

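The genes described here are the replication-dependent histone cluster genes, which encode the proteins that package newly made DNA, as measured in splenic dendritic cells of mice given muramyl dipeptide (MDP) or vehicle. They were chosen by name alone, as the genes with a probe set of their own whose symbol places them among the H1, H2A, H2B, H3 or H4 cluster genes, with the probe set of the highest mean where a gene had more than 1. This gave 29 of the 22180 genes measured. They comprise 8 linker histone H1 genes, 6 H2A genes, 8 H2B genes, 7 H4 genes and 0 H3 genes. Older symbols placed 21 of them in the Hist1 cluster on chromosome 13 and 5 in the Hist2 cluster on chromosome 3, and 3 had no cluster name. The name rule also took in 6 genes that are not somatic cluster histones. These are H1f10, a linker histone made outside replication, the testis genes H1f6, H1f7, H2ac1 and H2bc1, and the oocyte gene H1f8. The other 23 are called the somatic cluster genes below.

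The cells were CD205+CD8+ dendritic cells, the cross-presenting type known as cDC1, taken by flow sorting from spleens of C57Bl/6 littermates labelled male. Every mouse, controls included, had received 5000000 B16 melanoma cells that secrete Flt3L, a cytokine that expands dendritic cells, under the skin at 6 weeks of age. Intraperitoneal injection of 100 ul PBS, either plain or carrying 50 ug of MDP, followed 5 days later, and cells were taken 24 h after that and divided by their surface CD103. MDP is a piece of the bacterial cell wall that the receptor NOD2 senses, and CD103 is the integrin chain encoded by Itgae. The 13 arrays form the groups PBS CD103 low (n = 4, replicates 1, 3, 4 and 6), PBS CD103 high (n = 3, replicates 4, 5 and 6), MDP CD103 low (n = 3, replicates 1, 2 and 3) and MDP CD103 high (n = 3, replicates 2, 3 and 4). Values of single arrays are given in that order of replicates. The labels do not say whether an array stands for 1 mouse or for a pool, so the p-values describe the spread between these RNA samples, which may be technical in part.

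Replication-dependent histone genes lie in clusters and are transcribed as cells enter S phase, when the coactivator NPAT, switched on by cyclin E and CDK2, acts at histone locus bodies. Their mRNAs lack introns and a poly(A) tail and end instead in a stem-loop bound by SLBP, which guides 3′ processing, translation and decay. When replication stops, these mRNAs are broken down rapidly, so in dividing cells their level follows the share of cells in S phase. Chaperones such as NASP, ASF1 and the CAF-1 complex carry the new proteins to the replication fork.

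All values are deposited log2 RMA values, on which a difference of 1 is a doubling of signal. As a mark of background, 1105 olfactory receptor genes, used by sensory neurons of the nose, had a 95th percentile of 5.12. By their mean over all arrays 17 of the 29 histone genes lay above it, 5 of 8 in H1, 4 of 6 in H2A, 5 of 8 in H2B and 3 of 7 in H4. The other 12 cannot be told from background. In spite of the label male, the female-specific RNA Xist was at 10.98 to 11.21 in 7 arrays and at 4.47 to 6.69 in 6. Every group held both kinds. All 9 measured markers of cDC1 lay above the background mark. In bulk RNA, fewer cells of a type and less RNA per cell cannot be told apart, and a gate set on CD103 after MDP need not hold the same cells as after PBS. Itgae read 8.35, 8.17, 7.73 and 7.46 in PBS CD103 low cells, 10.16, 10.22 and 10.07 in PBS CD103 high, 10.68, 10.07 and 9.64 in MDP CD103 low and 11.44, 11.10 and 11.51 in MDP CD103 high. The MDP CD103 low arrays thus reached the range of the PBS CD103 high arrays or lay near it.

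Promoters are given for 5 genes on which the results turn, with matches to elements known from histone promoters. The sequences are the 250 bases before the annotated start, 5′ to 3′ on the gene's strand, from RefSeq (GRCm38.p6), with the matched letters of each motif in capitals, on either strand. The genes are the H1 gene that rose, H1f5 (chr13:21780626-21780875, reverse strand), an H1 gene without that rise, H1f2 (chr13:23738557-23738806, forward strand), the H2B gene H2bc12 (chr13:22035571-22035820, forward strand), the H2A gene H2ac21 (chr3:96219635-96219884, forward strand) and, for H4, H4c12 (chr13:21750554-21750803, reverse strand).
H1f5: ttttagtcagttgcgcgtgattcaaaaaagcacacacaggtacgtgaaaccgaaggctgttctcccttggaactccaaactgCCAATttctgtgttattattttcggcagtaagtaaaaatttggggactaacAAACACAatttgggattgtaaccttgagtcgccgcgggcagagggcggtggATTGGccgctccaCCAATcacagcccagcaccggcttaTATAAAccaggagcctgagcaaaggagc
H1f2: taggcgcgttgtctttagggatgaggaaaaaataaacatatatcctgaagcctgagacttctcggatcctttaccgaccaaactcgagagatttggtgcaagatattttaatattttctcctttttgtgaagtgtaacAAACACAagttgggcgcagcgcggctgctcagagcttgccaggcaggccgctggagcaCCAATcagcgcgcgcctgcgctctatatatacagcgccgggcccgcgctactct
H2bc12: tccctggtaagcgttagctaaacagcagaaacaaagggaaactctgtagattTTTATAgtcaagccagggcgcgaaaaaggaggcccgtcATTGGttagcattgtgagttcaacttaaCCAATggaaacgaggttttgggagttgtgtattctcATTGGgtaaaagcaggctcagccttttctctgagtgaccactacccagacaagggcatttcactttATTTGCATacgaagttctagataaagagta
H2ac21: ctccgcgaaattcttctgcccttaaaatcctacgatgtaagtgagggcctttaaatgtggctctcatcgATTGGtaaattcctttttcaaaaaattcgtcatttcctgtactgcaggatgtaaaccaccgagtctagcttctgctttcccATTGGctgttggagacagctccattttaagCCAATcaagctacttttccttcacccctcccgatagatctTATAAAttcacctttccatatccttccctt
H4c12: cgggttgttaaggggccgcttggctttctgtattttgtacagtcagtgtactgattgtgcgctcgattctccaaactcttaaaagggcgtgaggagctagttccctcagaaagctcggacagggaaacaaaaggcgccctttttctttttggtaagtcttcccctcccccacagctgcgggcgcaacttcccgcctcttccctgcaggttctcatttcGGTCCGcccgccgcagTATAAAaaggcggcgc
The motifs searched were CCAAT, which NF-Y binds, TATAAA of the TATA box, the octamer ATTTGCAT bound by OCT1, AAACACA of the H1 box, and GGTCCG from the H4 promoter element. No 2 motif matches overlapped. H1f5 and H1f2 both carried the H1 box, at -117 to -111 and -112 to -106 from the start, and a CCAAT box at -53 to -49 and -54 to -50. H2bc12 held the octamer at -30 to -23, and H4c12 held GGTCCG at -32 to -27. The only TATAAA match of H2bc12, at -198 to -193, lay on the opposite strand. H2ac21 held matches to CCAAT and TATAAA and to none of the other motifs.

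Windows from 250 bases before to 50 after the start were found for 27 of the 29 genes. CCAAT lay in 6 of 6 H2A, 7 of 7 H2B, 6 of 8 H1 and 1 of 6 H4 windows, against 37.4% of 32851 promoters. The octamer lay in 5 of 7 H2B and 3 of 6 H2A windows and in none of the H1 and H4 windows, against 1.74% of all. Part of this is shared sequence, because H2ac12 and H2bc12 are transcribed away from each other and share 277 bases of their windows, and H2ac1 and H2bc1 share 220. The H1 box lay in 4 of 8 H1, 2 of 7 H2B, 1 of 6 H2A and 0 of 6 H4 windows (7.18% of all). GGTCCG lay in 5 of 6 H4, 1 of 8 H1, 1 of 7 H2B and 0 of 6 H2A windows (8.25% of all). TATAAA lay in 16 of 27 windows (13.6% of all). A match describes letters and is no evidence of binding in these cells.

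The comparison of MDP with PBS in CD103 high cells was the only 1 of the 5 comparisons in which histone genes passed the threshold, an adjusted p under 0.05 over all 22180 genes (limma, Benjamini-Hochberg). H1f5, H2bc12 and H2ac21 rose and none fell. They are 1 gene each of the H1, H2B and H2A classes. Together they are 10.3% of the 29 genes, while 1.82% of all genes passed in either direction and 1.42% passed as higher.

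H1f5 (formerly Hist1h1b, probe set 17291005, Entrez gene 56702) encodes the linker histone H1.5, which binds DNA where it enters and leaves the nucleosome. It read 6.91, 6.77, 6.67 and 6.75 in PBS CD103 low cells, 6.28, 6.59 and 5.98 in PBS CD103 high, 6.61, 6.63 and 6.77 in MDP CD103 low and 7.42, 7.47 and 6.98 in MDP CD103 high. The 3 MDP CD103 high arrays stood above every other array, and the PBS CD103 high arrays stood below every array of the other groups. In CD103 high cells it was 7.29 ± 0.27 after MDP against 6.28 ± 0.30 after PBS (SD, n = 3 each), a 2.01-fold rise (log2 difference 1.00 ± 0.15 SE, limma adjusted p = 0.00631).

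H2bc12 (formerly Hist1h2bk, probe set 17285742, Entrez gene 319184) encodes an H2B, a core histone that pairs with H2A. Its arrays read 6.25, 6.57, 6.29 and 6.08 in PBS CD103 low cells, 6.05, 5.78 and 5.62 in PBS CD103 high, 6.02, 6.17 and 6.29 in MDP CD103 low and 7.00, 7.26 and 6.25 in MDP CD103 high. After MDP, replicate 4 of the CD103 high cells lay far below the other two, but still above the 3 PBS CD103 high arrays, and within the range of both CD103 low groups. The rise was 2.02-fold, from 5.82 ± 0.22 to 6.83 ± 0.52 (SD, n = 3 each; log2 difference 1.02 ± 0.21 SE, limma adjusted p = 0.0290).

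H2ac21 (formerly Hist2h2ab, probe set 17400539, Entrez gene 621893) encodes an H2A and lies in the smaller cluster on chromosome 3. It read 7.87, 7.81, 7.41 and 7.35 in PBS CD103 low cells, 7.21, 7.07 and 7.14 in PBS CD103 high, 7.24, 7.55 and 7.78 in MDP CD103 low and 7.89, 8.02 and 7.69 in MDP CD103 high. Here the MDP CD103 high arrays overlapped both CD103 low groups, and the PBS CD103 high arrays were the lowest of all. Within CD103 high cells it rose 1.65-fold, from 7.14 ± 0.07 to 7.87 ± 0.17 (SD, n = 3 each; log2 difference 0.73 ± 0.16 SE, limma adjusted p = 0.0366). A second probe set of H2ac21 lay at background, with group means of 3.27 to 3.56.

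**Figure D1:**
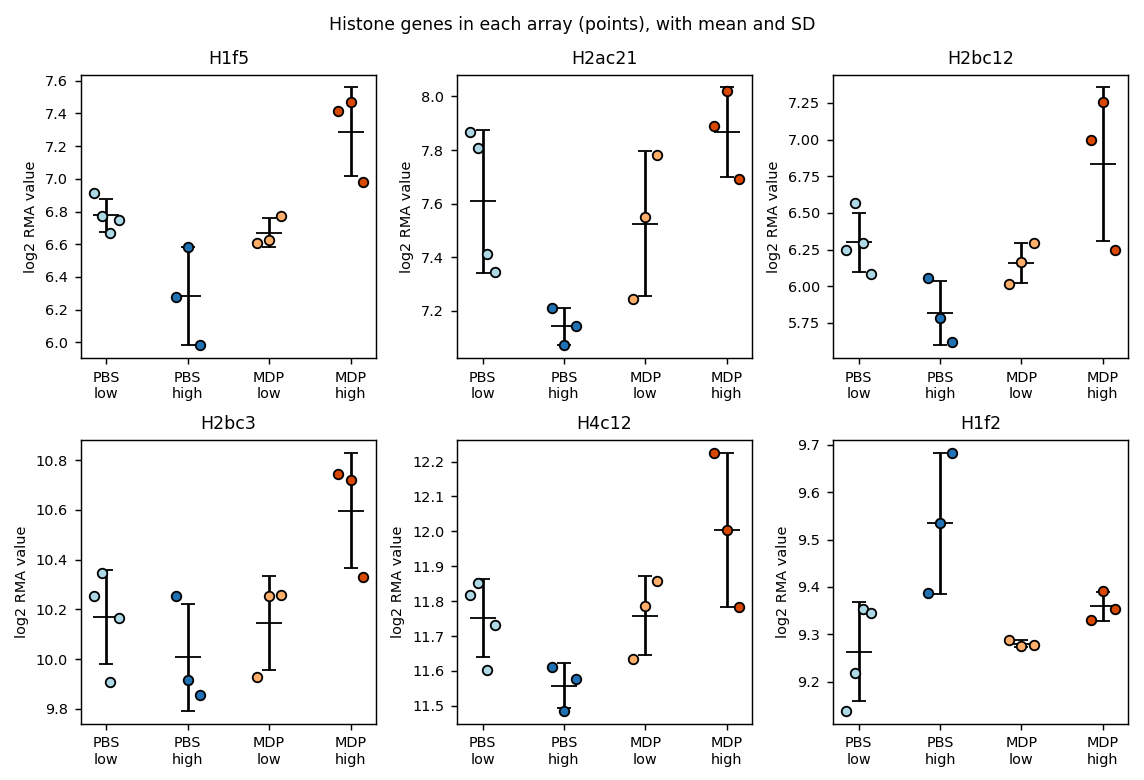
Log2 RMA values (vertical axes) of 6 histone genes in the 13 arrays, by group, with each point an array, each short bar the group mean and each whisker 1 SD. H1f5 is at 6.98 to 7.47 in the MDP CD103 high arrays and at 5.98 to 6.59 in the PBS CD103 high arrays, while H1f2 is at 9.33 to 9.39 and 9.39 to 9.68.

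Over all 29 genes, 23 lay above 0 in this comparison and the median log2 difference was 0.34, where 46.3% of all genes lay above 0 with a median of -0.01. At an unadjusted p under 0.05 there were 12 higher and 1 lower histone genes, 44.8% of the 29 against 13.3% of all genes. For 9 histone genes the MDP arrays all lay above the PBS arrays, and for 1 all below, where 8.96% and 10.0% of all genes did so. Among the somatic cluster genes 22 of 23 lay above 0, with a median of 0.45. Of the 6 testis, oocyte and replication-independent genes 1 lay above 0, with a median of -0.15. The genes do not give independent readings, since they share arrays and, in part, sequence.

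By class the medians were 0.44 for H2A (5 of 6 genes above 0), 0.34 for H2B (7 of 8), 0.24 for H4 (7 of 7) and 0.01 for H1 (4 of 8). The H1 class includes H1f6, H1f7, H1f8 and H1f10, which are not somatic cluster genes, so its median does not describe its somatic members. Of the somatic H1 genes, H1f5 rose and H1f2 was below 0. H1f3 (0.52 ± 0.21 SE, adjusted p = 0.294) and H1f1 (0.50 ± 0.25, adjusted p = 0.436) were above 0 without passing. Of the others, H1f7, H1f8 and H1f10 were below 0 and H1f6 was above it. Differences between classes were not tested.

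H1f2 encodes H1.2, a linker histone found in most cell types. It read 9.14, 9.22, 9.35 and 9.35 in PBS CD103 low cells, 9.39, 9.53 and 9.68 in PBS CD103 high, 9.29, 9.27 and 9.28 in MDP CD103 low and 9.33, 9.39 and 9.35 in MDP CD103 high. Its MDP and PBS arrays in CD103 high cells overlapped at 9.39, and the log2 difference was -0.18 ± 0.09 (SE, adjusted p = 0.406). H1f10, the replication-independent linker histone, read 5.09, 5.03, 5.06 and 5.23 in PBS CD103 low cells, 5.29, 5.31 and 5.41 in PBS CD103 high, 5.20, 5.14 and 5.18 in MDP CD103 low and 5.13, 5.14 and 5.14 in MDP CD103 high. Its PBS CD103 high arrays were the highest of all, and the difference of -0.20 ± 0.07 in CD103 high cells did not pass (adjusted p = 0.234). H1f10 and H1f2 thus had their highest group mean in PBS CD103 high cells, where H1f5 had its lowest.

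Among the H2B genes, H2bc3 and H2bc18 came next to H2bc12. H2bc3 read 10.25, 10.35, 9.91 and 10.16 in PBS CD103 low cells, 10.25, 9.91 and 9.85 in PBS CD103 high, 9.93, 10.25 and 10.26 in MDP CD103 low and 10.74, 10.72 and 10.33 in MDP CD103 high, and its MDP CD103 high arrays lay above the PBS CD103 high arrays, the lowest of them by a narrow margin. Its difference was 0.59 ± 0.15 (SE, adjusted p = 0.0754). H2bc18, a gene of the chromosome 3 cluster, read 7.92, 7.77 and 7.11 in MDP CD103 high arrays and 7.07, 6.49 and 6.49 in PBS CD103 high arrays (0.91 ± 0.25 SE, adjusted p = 0.105). At the other end, H2bc1, the testis H2B, had the lowest mean of its class and read 1.97, 1.87, 1.97 and 2.39 in PBS CD103 low cells, 1.78, 2.16 and 1.97 in PBS CD103 high, 1.74, 1.72 and 1.70 in MDP CD103 low and 2.03, 1.44 and 2.01 in MDP CD103 high. That is far under the background mark in every array.

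Of the H2A genes, H2ac10 had the highest mean. It read 9.94, 10.06, 9.48 and 9.86 in PBS CD103 low cells, 9.90, 9.41 and 9.80 in PBS CD103 high, 9.82, 9.83 and 10.17 in MDP CD103 low and 10.50, 10.40 and 10.05 in MDP CD103 high. The difference in CD103 high cells was 0.61 ± 0.17 (SE, adjusted p = 0.109), and the arrays did not overlap. H2ac15 (0.50 ± 0.19, adjusted p = 0.261) and H2ac20 (0.39 ± 0.14, adjusted p = 0.216) lay above 0 as well. H2ac12 had the lowest mean of the class and lay at background, with 2.30, 2.29, 1.91 and 2.22 in PBS CD103 low cells, 2.04, 1.99 and 2.20 in PBS CD103 high, 2.35, 1.91 and 2.38 in MDP CD103 low and 2.27, 2.25 and 2.16 in MDP CD103 high. It shares most of its promoter window with H2bc12, which rose, and its own difference was 0.15 ± 0.13 (adjusted p = 0.702).

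No H4 gene passed. H4c12 had the highest mean of the class and read 11.82, 11.85, 11.60 and 11.73 in PBS CD103 low cells, 11.61, 11.49 and 11.58 in PBS CD103 high, 11.63, 11.79 and 11.86 in MDP CD103 low and 12.22, 12.005 and 11.78 in MDP CD103 high. The MDP CD103 high arrays lay above the PBS CD103 high arrays without overlap, but replicate 4 fell within the range of both CD103 low groups. Its difference was 0.45 ± 0.11 (SE, adjusted p = 0.0616). H4c9 was higher by 0.15 ± 0.07 without overlap (adjusted p = 0.404). H4c2 had the lowest mean and read 2.48, 2.64, 2.63 and 2.59 in PBS CD103 low cells, 2.53, 2.28 and 2.32 in PBS CD103 high, 2.51, 2.47 and 2.27 in MDP CD103 low and 2.79, 2.61 and 2.45 in MDP CD103 high, all under the background mark. The testis linker gene H1f6, lowest in its class, did so too, with 3.87, 3.52, 3.78 and 3.99 in PBS CD103 low cells, 3.57, 3.80 and 3.79 in PBS CD103 high, 3.59, 4.26 and 3.91 in MDP CD103 low and 3.68, 3.82 and 3.76 in MDP CD103 high.

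**Figure D2:**
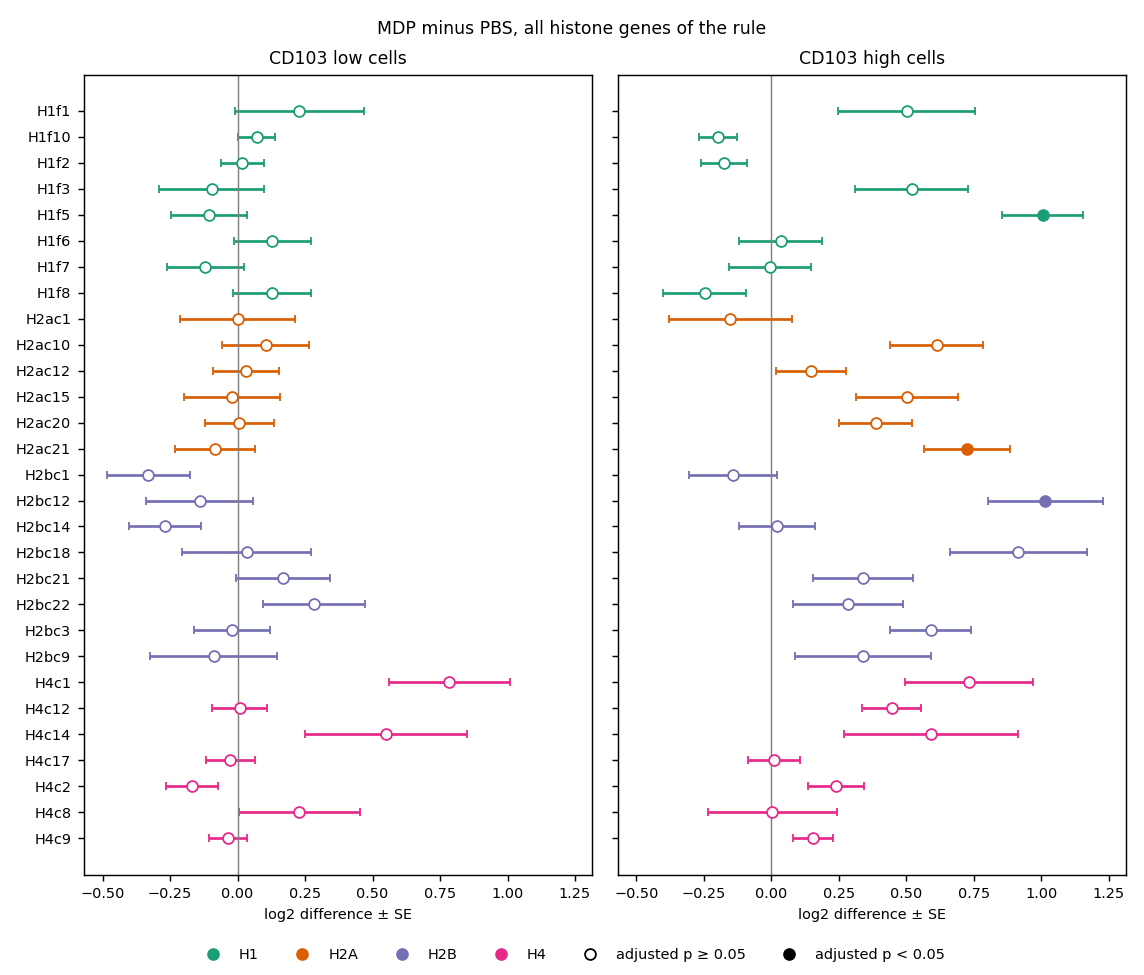
Log2 difference between MDP and PBS (horizontal axes) with its SE for each of the 29 histone genes, coloured by class, in CD103 low cells (left) and CD103 high cells (right). Filled points passed an adjusted p of 0.05, and these are H1f5, H2bc12 and H2ac21 in CD103 high cells, where 23 of 29 genes lie above 0 against 16 of 29 in CD103 low cells.

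The count of 3 depended on single arrays. It was 7 without MDP CD103 high replicate 4, when H1f3, H2bc3, H2bc18 and H4c12 also passed, and leaving out MDP CD103 high replicate 2 or replicate 3, or PBS CD103 high replicate 5 or replicate 6, brought it to 1, at which H1f5 alone passed. H2ac21 also lost its call when PBS CD103 high replicate 4 was left out, and when MDP CD103 low replicate 2 was, while H2bc3 passed without PBS CD103 high replicate 4 and H4c12 without MDP CD103 low replicate 1. The median of 0.34 was 0.17 without MDP CD103 high replicate 3. H1f5 passed with any 1 of the 13 arrays left out, with differences of 0.86 to 1.16. In arrays with high Xist, 2 against 2, the CD103 high difference was 0.79 for H1f5, 0.83 for H2bc12 and 0.72 for H2ac21, and in those with low Xist, 1 against 1 array, it was 1.43, 1.38 and 0.75. None of these passed. With a term for high or low Xist in the fit of all arrays the same 3 genes passed, and when only these groups were fitted H2ac21 alone did.

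In CD103 low cells MDP was not accompanied by a change in any histone gene that passed (limma), and 0.00451% of all genes passed there. The median over the 29 genes was 0.01, with 16 above 0, beside 0.00 over all genes, and its sign turned with the array left out (-0.04 to 0.06). At an unadjusted p under 0.05 there was 1 histone gene, H4c1, or 3.45% of the 29, against 6.06% of all genes. H4c1, an H4 gene with a mean under the background mark, read 4.46, 4.49, 3.78 and 4.20 in PBS CD103 low cells, 3.73, 4.03 and 4.29 in PBS CD103 high, 5.38, 4.91 and 4.76 in MDP CD103 low and 4.99, 4.98 and 4.27 in MDP CD103 high. Its MDP CD103 low arrays lay above the PBS CD103 low arrays, with a difference of 0.78 ± 0.22 (SE, adjusted p = 0.741). It was the 1 histone gene higher without overlap, and H2bc1 (-0.33 ± 0.15) and H2bc14 (-0.27 ± 0.13, adjusted p = 0.814 for both) were lower without overlap, where 2.98% and 2.52% of all genes were. H2bc14 read 3.10, 2.84, 2.80 and 2.75 in PBS CD103 low cells, 2.64, 3.17 and 2.68 in PBS CD103 high, 2.61, 2.64 and 2.56 in MDP CD103 low and 2.76, 3.07 and 2.73 in MDP CD103 high, also under the background mark.

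Whether MDP acted differently in the 2 subsets was tested as an interaction. No histone gene passed it (limma), and 0.0721% of all genes did. H1f5 came nearest, with an MDP difference in CD103 high cells that exceeded that in CD103 low cells by 1.11 ± 0.21 (SE, adjusted p = 0.0730). H2bc12 followed with 1.16 ± 0.29 (adjusted p = 0.150) and H2ac21 with 0.81 ± 0.22 (adjusted p = 0.189). The median over the 29 genes was 0.19, with 22 above 0, and 8 genes had an unadjusted p under 0.05, or 27.6% against 9.63% of all genes. With arrays of the same number and treatment as a random block H1f5 passed, at 1.14 ± 0.19 (adjusted p = 0.0361), and with the same block as a fixed term, which rests on 2 pairs per treatment, it did not, at 1.32 ± 0.17 (adjusted p = 0.387). A difference between subsets thus depended on the fit for H1f5 and was not shown for the other histone genes in these 3 fits. H1f5 also passed (adjusted p = 0.0307) when genes at background were left out, and also with a variance trend and robust prior (adjusted p = 0.0284).

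The CD103 subsets were then compared within each treatment, and these comparisons share their arrays with those above. In MDP mice no histone gene passed between CD103 high and low cells (limma), while 0.523% of all genes did. The median was 0.20 with 24 of 29 above 0, and 8 genes, all higher in CD103 high cells, had an unadjusted p under 0.05, or 27.6% against 10.2% of all genes. By class 8 of 8 H2B, 5 of 6 H2A, 6 of 7 H4 and 5 of 8 H1 genes lay above 0, and their medians were 0.38, 0.29, 0.13 and 0.09. The classes include the testis, oocyte and replication-independent genes, most of them in H1. Of these 6 genes 2 lay above 0, with a median of -0.07, against 22 of 23 somatic cluster genes, with a median of 0.25. H1f5 (0.62 ± 0.15 SE, adjusted p = 0.107), H2bc12 (0.67 ± 0.21, adjusted p = 0.254) and H2bc3 (0.45 ± 0.15, adjusted p = 0.299) had the smallest p. For 6 histone genes the CD103 high arrays all lay above the CD103 low arrays and for 0 below, against 6.43% and 7.93% of all genes. H1f3 and H2bc12 passed when MDP CD103 high replicate 4 was left out.

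In PBS mice no histone gene passed (limma), with 0.0766% of all genes passing, and the direction over the 29 genes was not settled. Without pairing the median was -0.07 with 21 of 29 below 0. Replicates 4 and 6 recur in both subsets and their arrays deviated together, and within these 2 pairs the median turned to 0.02, with 17 of 29 above 0. The average over the 29 genes was 5.63 in CD103 high against 5.53 in CD103 low cells of replicate 4, and 5.64 in both of replicate 6. With the pairs as a random block, which also keeps the unpaired arrays, the median was -0.09 with 12 above 0. By unadjusted p without pairing, 5 genes were under 0.05, or 17.2% against 8.52% of all genes. H1f5 (-0.49 ± 0.14, adjusted p = 0.347), H2ac21 (-0.47 ± 0.15, adjusted p = 0.406) and H2bc12 (-0.48 ± 0.20, adjusted p = 0.539) were lower in CD103 high cells without overlap, where 4.05% of all genes were. H1f10 (0.23 ± 0.07, adjusted p = 0.348), H1f2 (0.27 ± 0.08, adjusted p = 0.366) and H4c8 (0.36 ± 0.22, adjusted p = 0.730) were higher without overlap, where 4.48% of all genes were. The 3 genes that rose with MDP in CD103 high cells are thus the 3 without overlap at the low end in PBS mice. Both comparisons use the same PBS CD103 high arrays, so this is no independent sign. Within the 2 pairs these 3 were at -0.58, -0.20 and -0.35 for H1f5, H2ac21 and H2bc12 and did not pass.

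**Figure D3:**
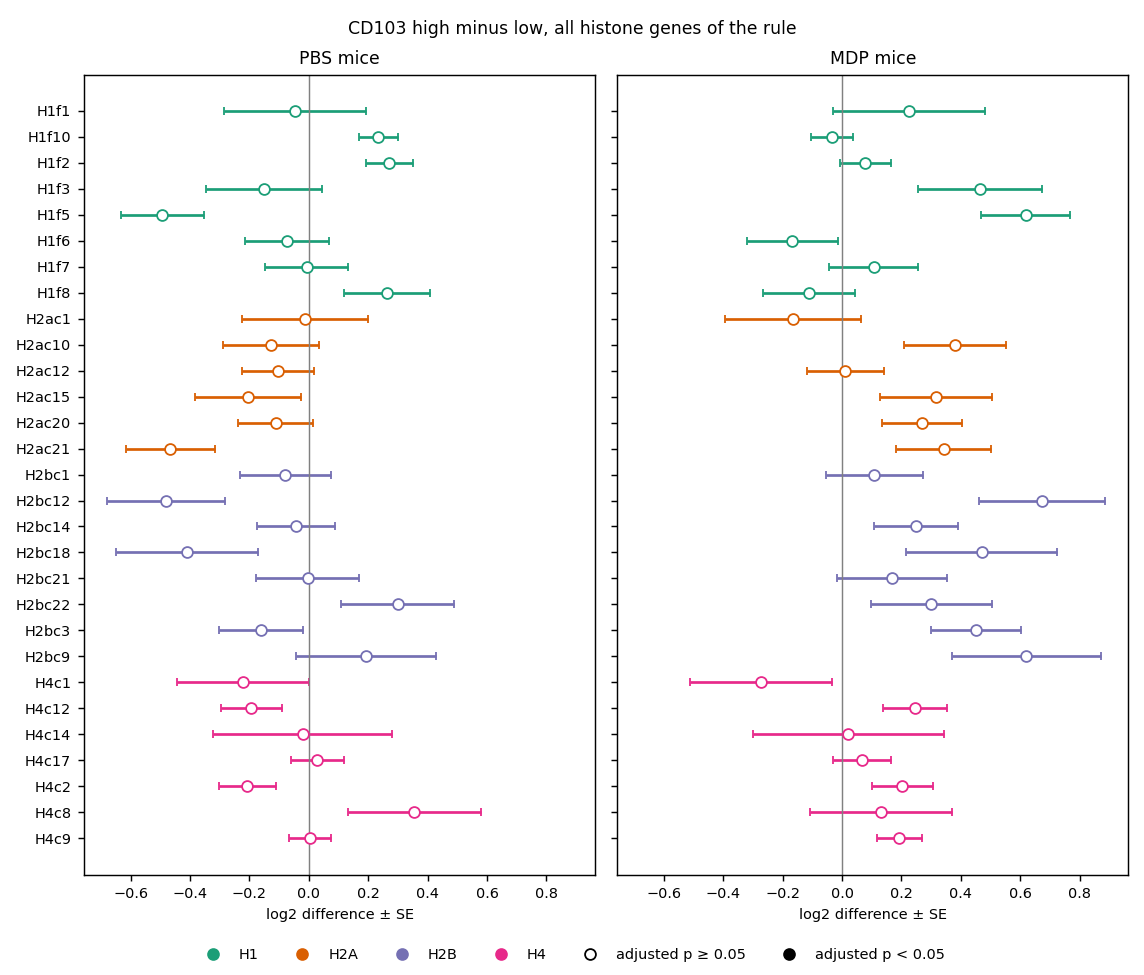
Log2 difference between CD103 high and CD103 low cells (horizontal axes) with its SE for each of the 29 histone genes, coloured by class, in PBS mice (left) and MDP mice (right). The fit has no pairing of arrays. All points are open because no gene passed; 21 of 29 genes lie below 0 in PBS mice and 24 of 29 lie above 0 in MDP mice.

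Read gene by gene, the group mean was highest in MDP CD103 high cells for 20 of the 29 genes and lowest in PBS CD103 high cells for 17. These counts include the 12 genes at background. Shares over all 22180 genes are not given here, so how unusual this order is remains unsaid.  Averaged over all 29 genes, the MDP CD103 high arrays were at 6.06, 6.01 and 5.72 and the PBS CD103 high arrays at 5.63, 5.57 and 5.64, while CD103 low arrays were at 5.65, 5.74 and 5.79 after MDP and 5.77, 5.78, 5.53 and 5.64 after PBS. MDP CD103 high replicate 4 thus fell inside the range of the CD103 low arrays. It was the lowest array of its group for 20 of the 29 genes and the highest for 0. The matching shares over all genes are not given here, so a trait of the whole array cannot be told from one of the histone genes.

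**Figure D4:**
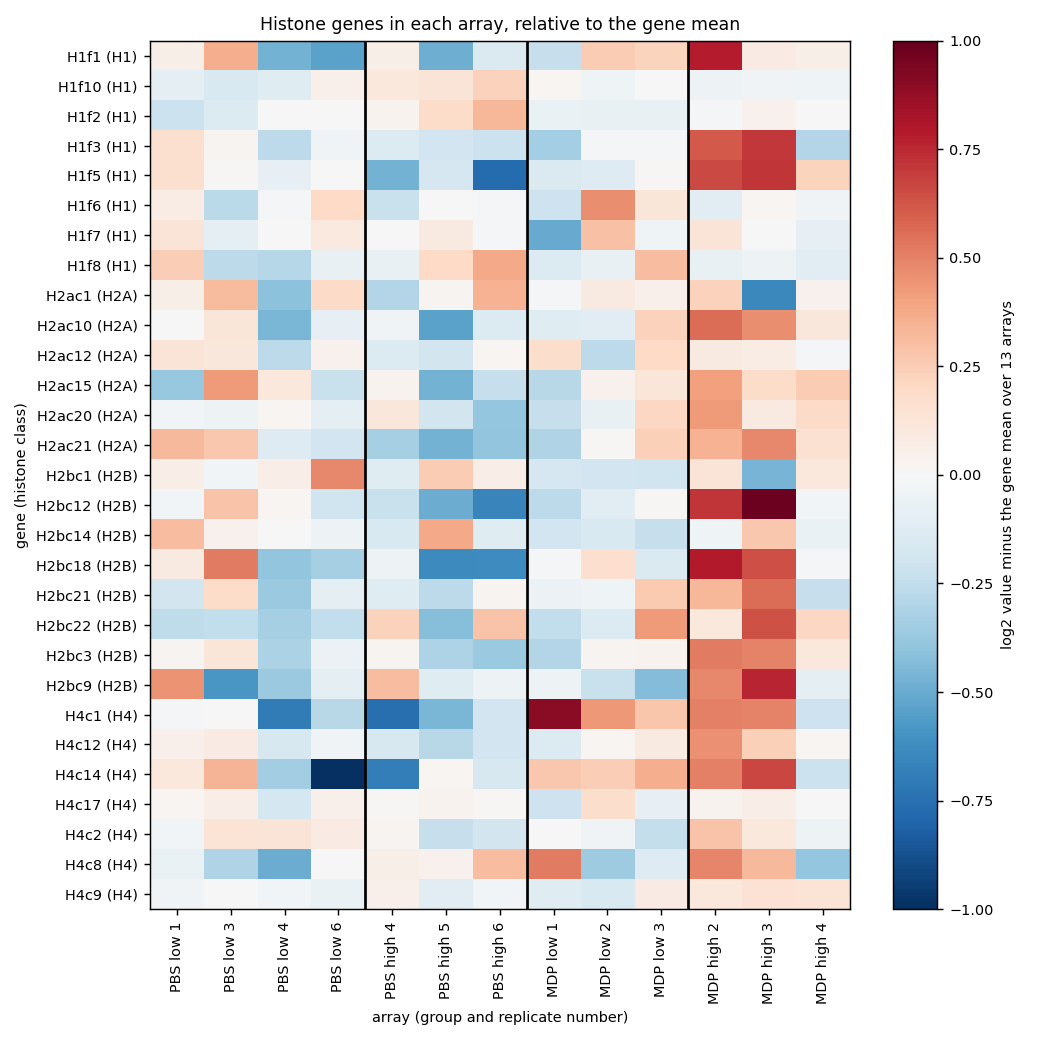
Each of the 29 histone genes (rows, with class) in each of the 13 arrays (columns, by group and replicate), as log2 value minus the gene's mean over all arrays, from -1 (blue) to 1 (red). Red is densest in MDP CD103 high replicates 2 and 3, while replicate 4 is the lowest of the 3 for 20 of the 29 genes.

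The histone average was set beside genes of the cell cycle because histone mRNA is known to follow S phase. After MDP in CD103 high cells 18 of 19 measured S phase genes passed as higher and all 19 lay above 0, with a median of 0.77. Of 17 G2 and mitosis genes 8 passed as higher, 15 had an unadjusted p under 0.05 and all 17 lay above 0. Their median was 0.66. Of all genes 1.42% passed as higher, 13.3% had an unadjusted p under 0.05 and 46.3% lay above 0. Cdc6, which loads the replicative helicase (1.27 ± 0.16 SE, adjusted p = 0.00428), and Cdc45, a part of that helicase (1.02 ± 0.14, adjusted p = 0.00502), led the S phase genes. The spindle checkpoint kinase Bub1 (0.84 ± 0.16, adjusted p = 0.0161) and topoisomerase Top2a (0.89 ± 0.16, adjusted p = 0.0162) led the G2 and mitosis genes. In the MDP CD103 high arrays the S phase average was 9.11, 9.11 and 9.09, the last in the array with the low histone average. Its G2 and mitosis average was the lowest of the 3, at 8.50 against 8.78 and 8.87. In PBS CD103 high arrays these averages were 8.17 to 8.53 for S phase and 7.88 to 8.30 for G2 and mitosis. The part of the share of cycling cells in the histone differences was not tested.

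**Figure D5:**
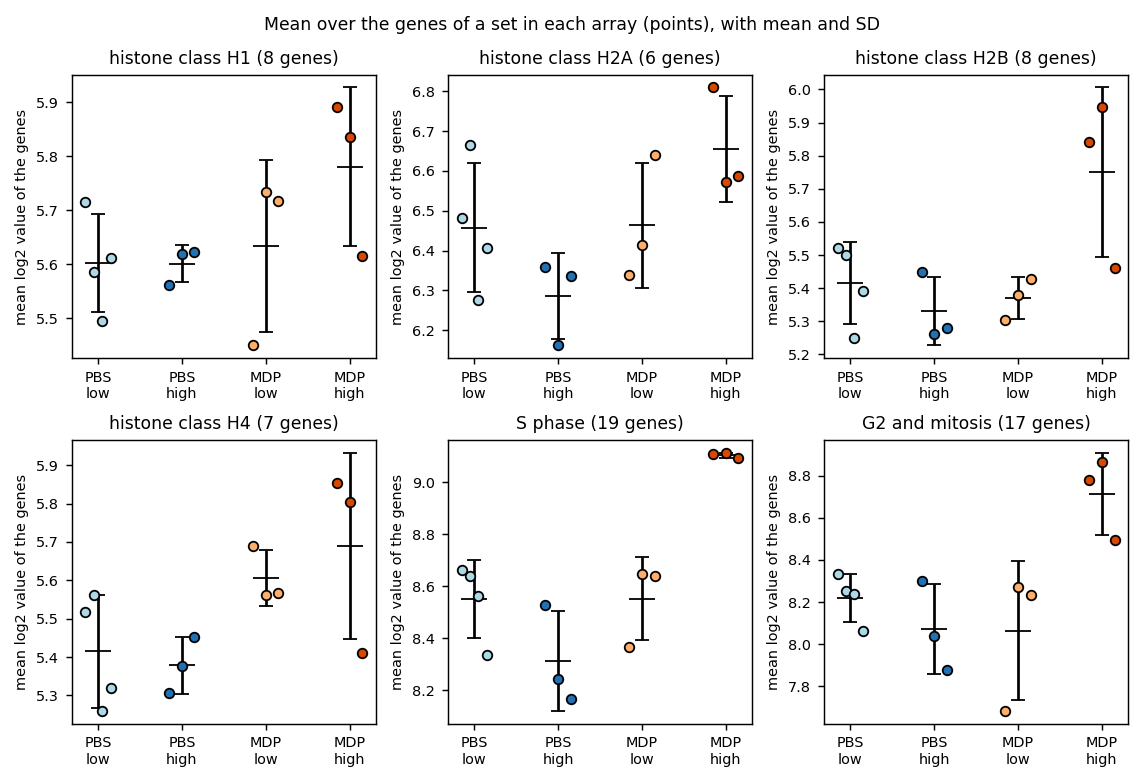
Mean log2 value over the genes of each histone class, of S phase genes and of G2 and mitosis genes (vertical axes) in the 13 arrays by group, with each point an array, each short bar the group mean and each whisker 1 SD. The S phase mean is 9.09 to 9.11 in MDP CD103 high arrays, where the H2B mean spans 5.46 to 5.95.

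Among 18 measured genes of histone gene transcription and mRNA 3′ processing, 3 passed as higher in CD103 high cells after MDP and none as lower. Of the 18, 12 lay above 0 and 6 below, with a median of 0.15. Eri1, an exonuclease that trims the histone stem-loop (0.44 ± 0.08 SE, adjusted p = 0.0128), Ccne1, cyclin E1 (0.67 ± 0.15, adjusted p = 0.0391), and Cdk2 (0.48 ± 0.11, adjusted p = 0.0426) passed, Cdk2 no longer with same-numbered arrays of a treatment as a random block (adjusted p = 0.0553). Slbp, the stem-loop binding protein, read 8.90, 8.69 and 9.00 in MDP CD103 high arrays and 8.47, 8.52 and 8.45 in PBS CD103 high arrays, which did not overlap, but its difference of 0.38 ± 0.13 did not pass (adjusted p = 0.191). Npat read 9.04, 8.97 and 9.09 and 8.99, 8.82 and 8.66, which overlapped (0.21 ± 0.09, adjusted p = 0.332).

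With a median of 0.36, all 17 measured chaperones and modifiers of new histones lay above 0 after MDP in CD103 high cells, and 7 passed as higher. They were Mms22l (0.96 ± 0.12 SE, adjusted p = 0.00468) and Tonsl, partners that bind new H4 at damaged forks, Nasp (0.89 ± 0.12, adjusted p = 0.00502), the CAF-1 subunits Chaf1a and Chaf1b, Asf1b, and the chromatin remodeller Hells. Mms22l was also the 1 gene of this list that passed the interaction (1.04 ± 0.17, adjusted p = 0.0486). In MDP mice Mms22l (0.70 ± 0.12, adjusted p = 0.0257) and Asf1b (0.72 ± 0.14, adjusted p = 0.0461) were higher in CD103 high than low cells. These 3 calls were kept with same-numbered arrays of a treatment as a random block (adjusted p = 0.0283, 0.0142 and 0.0250) and lost with that block as a fixed term (adjusted p = 0.430, 0.261 and 0.233). Of 10 measured genes listed as replication-independent histone variants and their chaperones, none passed after MDP in CD103 high cells (limma), and 8 lay above 0. Whether each of these genes is independent of the cell cycle was not tested. An unadjusted p under 0.05 was reached by 3 of the 10, where 13.3% of all genes reached it. H2ax, which marks DNA breaks when phosphorylated (0.33 ± 0.10, adjusted p = 0.128), and Atrx (0.20 ± 0.07, adjusted p = 0.231) had the smallest p, and the median was 0.16. None of the genes of these 3 lists, of S phase or of G2 and mitosis passed between treatments in CD103 low cells or between subsets in PBS mice (limma). Of their 81 genes, 4 in CD103 low cells had an unadjusted p under 0.05, where 6.06% of all genes did. Between subsets in PBS mice it was 19 of the 81, where 8.52% of all genes did. There, without pairing, 17 of 19 S phase, 17 of 17 G2 and mitosis and 16 of 17 chaperone genes lay below 0, that is, lower in CD103 high cells. So did 10 of 18 transcription and processing genes and 8 of 10 variant genes.

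H3, the remaining core histone, could be read only through probe sets listed with several gene symbols, from which no gene is named. There were 37 such probe sets for histones, 12 of them for H3 alone, and 34 had values distinct from one another. Tested in a separate fit of the 17824 probe sets without a single symbol, none passed in any comparison. After MDP in CD103 high cells 9 of 12 H3 probe sets lay above 0, with a median of 0.34, and 4 had an unadjusted p under 0.05. The shared H2A probe sets had a median of 0.50 (9 of 9 above 0), those of H2B 0.51 (5 of 7) and those of H4 0.07 (4 of 5). In either direction 8 of 9, 5 of 7 and 1 of 5 of these had an unadjusted p under 0.05. Shares over the 17824 probe sets are not given here, so how unusual these counts are is left unsaid. Paralogs within a class are near-identical in coding sequence, so a probe set with 1 symbol may also take up signal of its neighbours, and which paralog moved is uncertain.

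Markers of mature dendritic cells moved the other way from most histone genes. All 12 markers of mature dendritic cells lay below 0 after MDP in CD103 high cells, and Ccr7, Ccl5, Relb and Cd80, 4 of the 12, passed. Of all 22180 genes 88 passed as lower in this comparison, and 46.3% lay above 0. Cd80 did not pass with the random block (limma adjusted p = 0.0534). In CD103 high cells the mean of the 12 markers per array was 7.06 to 7.33 after MDP against 7.83 to 8.16 after PBS. In MDP CD103 low replicate 1 this mean was 8.73 against 7.73 and 7.78. That array was the lowest of its group for 17 of the 29 histone genes and the highest for 7, for which shares over all genes are not given. Its H4 average was the highest, at 5.69 against 5.56 and 5.57. Without that array the histone median between subsets of MDP mice was 0.17. Of other cell types, the plasmacytoid markers Cd300c and Pacsin1 and the B cell marker Fcrla passed as lower, and none of the monocyte, T cell, erythroid or B16 markers passed. The lists did not move as a whole, since 3 of 9 plasmacytoid and 3 of 7 B cell markers lay above 0, with medians of -0.06 and -0.05. The list means per array were 6.48 to 6.54 after MDP and 6.68 to 6.74 after PBS for plasmacytoid, 5.72 to 5.79 and 5.76 to 5.89 for B cell, and 6.20 to 6.49 and 6.29 to 6.49 for monocyte markers. They were 4.68 to 4.82 and 4.71 to 4.79 for T cell, 5.05 to 5.13 and 4.97 to 5.10 for erythroid, and 4.89 to 4.98 and 4.87 to 5.07 for B16 markers. Pax5, Cd79a and Cd79b, Cd3d, Cd3e and Cd3g, Klf1 and Slc4a1, and Tyr, Dct and Mlana lay at or under the background mark. Other markers of these lists lay above it, 3 of 7 for B cells, 1 of 6 for T cells, 1 of 6 erythroid and 3 of 8 for B16. So did 8 of 9 plasmacytoid and 6 of 7 monocyte markers. The part of the mature markers in the histone differences was not tested.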

How the data were processed

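The authors deposited log2 values of 13 Mouse Gene 2.0 ST arrays, made with RMA in Affymetrix Expression Console per the submitters' processing notes; neither versions nor a genome build could be had from these sources. RMA subtracts background, equalises the arrays' distributions by quantile normalisation and summarises probes, so a shift shared by most genes would be lost. Array medians were 5.00 to 5.13. Per the labels' protocols, 400 ng of RNA was pre-amplified with the WT Plus Pico kit; how its priming treats RNAs without a poly(A) tail was not stated there.

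Of 41345 probe sets, 23521 had 1 symbol, 1814 several and 16010 none in the probe table. The first gave 22180 genes, of which 21994 were found in the RefSeq table. All genes were fitted with limma 3.58.1 (R 4.3.3; lmFit, contrasts.fit, eBayes) with 1 mean per group, which left 9 residual degrees of freedom; tests were two-sided, with Benjamini-Hochberg adjustment over all genes of a contrast and a threshold of 0.05. The pipeline was tested on simulated data. Python 3.11.15 and pandas 2.3.3 were used for tables.

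Histone genes were named when past the threshold in any contrast (otherwise the 3 with the smallest p), or when highest or lowest in mean within a class; other histone genes were picked with their values in view. From each related list up to 2 genes per direction with the smallest p were named, with Npat, Slbp, Xist and Itgae always; further members that passed, and markers at background, were picked with their values in view. The genes and the lists were chosen with earlier results of these data known. Alternatives were the mean of a gene's probe sets, a filter at the olfactory 95th percentile, arrays centred on their median, a variance trend with robust prior, a term for Xist, arrays of 1 Xist class, only the groups compared, same-numbered arrays as a block and each array left out. The labels give the replicate numbers no meaning. The 4 pairs of arrays that share number and treatment had deviations from their group means that correlated at 0.20 to 0.37 and the same Xist class in 4 of 4. Among the 5 pairs of equal number across treatments, 2 correlated above 0.1, with a range of -0.24 to 0.45. Among 17 pairs of different number within a treatment, 5 did, with a range of -0.35 to 0.17. The highest correlation was thus across treatments. The numbers were taken as pairing the subsets within a treatment because all 4 such pairs correlated, from the data and not from the labels, so this pairing is uncertain. This block was added after seeing the data, as a fixed term and as a random effect (duplicateCorrelation, consensus 0.18). The number of arrays limits the precision.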

Additional observations from a re-analysis of the deposited data

Results flagged for a closer look

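Among the 29 histone genes in the 1 group of 4 arrays, H2bc22, an H2B gene, stood out by a low array, PBS CD103 low replicate 4 at a log2 value of 4.91, where the other 3 arrays lay at 4.99, 4.99 and 5.00. Its gap was 0.86 of the group's range, past the limit for 4 samples, although the range itself was small, and chance alone passes this limit in about 1 of 20 groups.

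The MDP difference of H1f5 had opposite signs in the CD103 subsets, 1.00 in CD103 high cells and -0.11 in CD103 low cells. The difference between them was 1.11 and missed the threshold in the interaction test (limma adjusted p = 0.0730). In CD103 low cells no H1 gene passed after MDP (lowest limma adjusted p = 0.885), so a fall of H1f5 there was not shown.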

How the results depend on the processing

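The count of histone genes past the threshold after MDP in CD103 high cells, 3 with a median of 0.34, was 5 (median 0.50) with genes at background left out, 5 with a variance trend and robust prior, 1 with only the groups compared, and 0 in arrays with high Xist (median 0.24) and in arrays with low Xist (median 0.47). With arrays left out 1 at a time it was 1 to 7, with a median of 0.17 to 0.41. H1f5 passed in 19 of 23 alternatives, H2bc12 in 15 and H2ac21 in 13, and with the mean of its 2 probe sets H2ac21 differed by 0.44 and did not pass. In every alternative run the 3 genes stayed above 0 in this comparison.

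Between the subsets of MDP mice the count was 0 to 2 and the median 0.12 to 0.31 with 1 array left out, and the median was 0.060 in arrays with high Xist. For the interaction the count was 1 and the median 0.44 with genes at background left out, the count was 1 with a variance trend and robust prior, and the median was 0.058 in arrays with high Xist, 0.33 in arrays with low Xist and 0.12 to 0.35 with 1 array left out. After MDP in CD103 low cells the median was 0.14 in arrays with high Xist and -0.10 in those with low Xist, and -0.04 to 0.06 with 1 array left out, so it has no settled sign. In PBS mice it was -0.11 to -0.03 with 1 array left out. The causes were not tested.

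With the replicate number as a replicate block in all arrays, which also ties arrays across treatments, the count after MDP in CD103 high cells was 0 and the median 0.11, and the median between subsets of PBS mice turned to 0.03. With the block taken within each treatment as a fixed term, chosen after seeing the data, no histone gene passed between subsets, and the medians were 0.02 in PBS mice, 0.22 in MDP mice and 0.22 for the interaction. As a random block it left the same 3 genes after MDP in CD103 high cells, with a median of 0.32, gave 1 gene for the interaction, and changed no other call of a histone gene. The interaction could not be fitted with only the groups compared, nor MDP against PBS with the fixed block within treatment. Values of the 12 genes at background carry little signal.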
